A study of Mus musculus with 2 samples.

Results

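The clustered protocadherin locus on mouse chromosome 18 was examined for regions enriched in the histone variant H2A.Z, in embryonic stem cells that carried either wild-type H2A.Z or the mutant K3R3. Its members were all regions of the 4 deposited region lists that overlapped a window of 1.05 Mb, from 37000001 to 38050000 on chromosome 18 of the build mm9. The authors deposited a looser list (threshold 1e-09 in the track line) and a stricter list (1e-12) for each library. The window held 92 of 99812 wild-type and 100 of 114028 K3R3 regions in the looser lists, and 91 of 97146 and 98 of 110435 in the stricter lists, which makes 381 of 421421 regions in all.

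The cells of both groups were embryonic stem cells of the strain V6.5, described as 129SvJaexC57BL/6, and the protocol names the transgenic lines as KH2. Both lines carried a lentiviral H2A.Z transgene with YFP fused to its C-terminus under a CMV promoter controlled by doxycycline, were induced with 1 µg/ml doxycycline and were sorted for YFP. Both also expressed short hairpin RNAs that target the untranslated 3′ end of the cells' own H2A.Z transcript. The groups differed in the transgene, which was wild type or had its C-terminal lysines K119, K120 and K123 changed to arginine (K3R3). Chromatin immunoprecipitation with an antibody against GFP, which also binds YFP, was followed by sequencing, with 1 library per group. No difference between the groups therefore has a replicate check, no p-value is given, and the intervals below cover counting error only. The exception is the interval of a mean log2 width ratio, which covers the spread over places in the window.

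H2A.Z replaces histone H2A mainly in nucleosomes at promoters and enhancers. The lysines changed in K3R3 are known sites of mono-ubiquitylation, a mark placed on H2A.Z by the Polycomb machinery at silent or poised genes. Clustered protocadherins are adhesion proteins of the neuronal surface, and each neuron expresses a small set of them by choosing among many alternative promoters. In the alpha (Pcdha) and gamma (Pcdhg) arrays each variable exon has its own promoter and is spliced to constant exons shared by the array, while each beta (Pcdhb) gene is encoded by its own large exon without shared constant exons.

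The gene table at hand is of the build GRCm38, so it was used for names and order alone. It lists 58 genes of the 3 arrays, in the order alpha, beta, gamma. These are 12 genes from Pcdha1 to Pcdha12 followed by Pcdhac1 and Pcdhac2, then 22 genes from Pcdhb1 to Pcdhb22, then 12 Pcdhga and 7 Pcdhgb genes interleaved (Pcdhgb8 is listed as a transcribed pseudogene), and last Pcdhgc3, Pcdhgc4 and Pcdhgc5. Slc25a2, a mitochondrial carrier gene, and Taf7, which encodes a subunit of the transcription factor TFIID, lie between Pcdhb22 and Pcdhga1. Hars2, Zmat2 and the pseudogene Gm6756 come just before Pcdha1, and Diaph1, which encodes a formin, comes just after Pcdhgc5. No annotation of mm9 was used here. Regions were therefore not placed in genes, exons, introns or promoters, and the name of the locus rests on the window's coordinates.

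Both forms of H2A.Z occupied the window in many regions of moderate width. In the looser lists the wild type had 87.6 regions per Mb in the window against 30.4 on the rest of chromosome 18, a ratio of 2.88 (95% exact binomial interval 2.31 to 3.54). K3R3 had 95.2 against 38.9 per Mb, a ratio of 2.45 (1.99 to 2.99). The regions covered 61.9 kb of the window in the wild type and 67.1 kb in K3R3, which is 5.90% and 6.39% of its length, against 1.46% and 1.71% on the rest of the chromosome. The rest of the chromosome was taken from its first to its last region in any list and includes stretches almost without regions.

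This density was shared with the surroundings. The chromosome was divided into 83 stretches of 1.05 Mb counted out from the protocadherin window. The window ranked 7 by the number of wild-type regions and 9 by the number of K3R3 regions. The stretch just before it held 94 wild-type and 95 K3R3 regions, and the stretch just after it held 117 and 150. Against the mean of these neighbours the window had fewer regions, with ratios of 0.872 in the wild type and 0.816 in K3R3. By covered length the window ranked 3 in the wild type and 5 in K3R3.

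**Figure D1:**
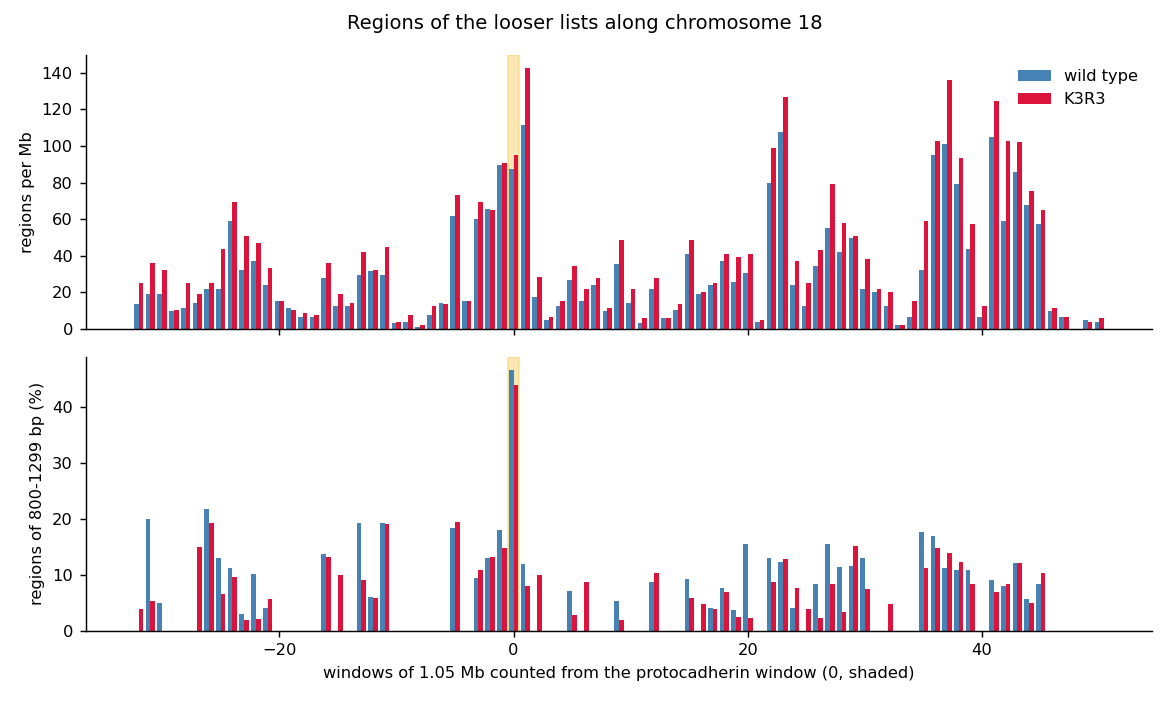
Looser-list regions in stretches of 1.05 Mb along chromosome 18, counted from the protocadherin window (0, shaded), in the wild type (blue) and K3R3 (red). The upper panel gives regions per Mb. The lower panel gives the share of regions of 800 to 1299 bp in stretches with at least 20 regions of that library, where the window stands at 46.7% and 44% and no other stretch is above 21.7% and 19.5%.

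Width set the window apart from the other stretches more than density did. The median wild-type region of the window was 775 bp wide (quartiles 344 and 950), against 325 bp on the rest of the chromosome. The median K3R3 region was 675 bp wide (319 and 1000), against 300 bp. The stretch just before the window had medians of 525 bp (wild type) and 450 bp (K3R3), and the stretch just after it 375 and 350 bp. Among all other stretches with at least 20 regions, the highest medians were 575 bp (wild type) and 450 bp (K3R3). Regions of 800 to 1299 bp made up 43 of 92 wild-type regions (46.7%, 95% Wilson interval 36.9 to 56.9) and 44 of 100 K3R3 regions (44%, 34.7 to 53.8). On the rest of chromosome 18 they made up 10.7% and 8.70%, and over all chromosomes 12.1% and 10.8%. Among stretches with at least 20 regions, the window had the highest share of this class of 47 stretches in the wild type and of 56 in K3R3. The highest share elsewhere was 21.7% in the wild type and 19.5% in K3R3. Regions under 200 bp numbered 6 in either library, a share of 6.52% (wild type) and 6% (K3R3). On the rest of the chromosome these shares were 25.4% and 26.0%. Regions of 1300 bp or more numbered 2 in either library, 2.17% and 2%, against 6.49% and 5.31%. The widest wild-type region had 1800 bp and the widest K3R3 region 1850 bp. The class limits were chosen after the widths had been seen.

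**Figure D2:**
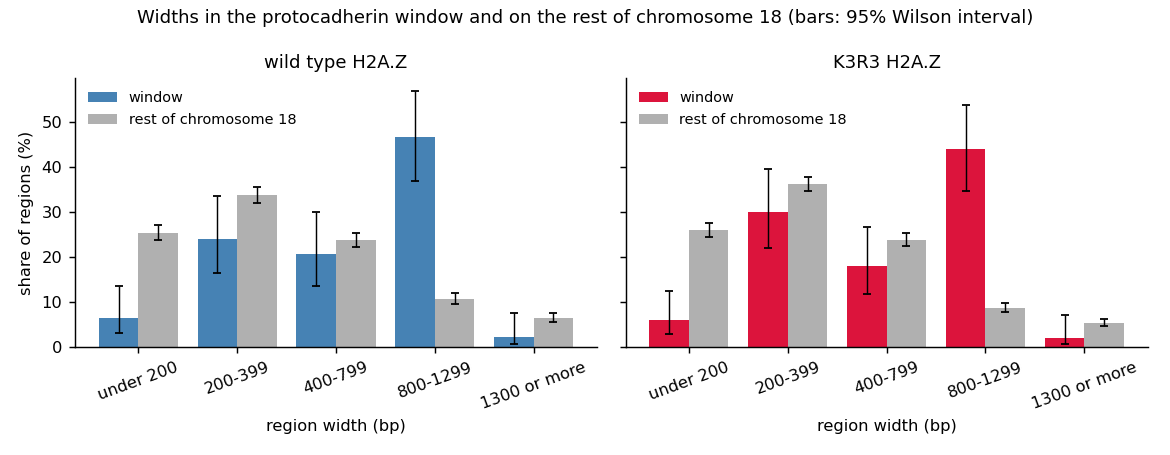
Share of looser-list regions in 5 width classes, in the protocadherin window (coloured) and on the rest of chromosome 18 (grey), for the wild type (left) and K3R3 (right), with 95% Wilson intervals. The class of 800 to 1299 bp holds 46.7% of wild-type and 44% of K3R3 regions in the window, against 10.7% and 8.70% on the rest of the chromosome.

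Along the window the regions fell into separate blocks. Neighbouring wild-type regions were a median of 4325 bp apart (quartiles 1213 and 7950), against 8325 bp (2375 and 29025) on the rest of the chromosome. K3R3 regions were a median of 4175 bp apart (988 and 7900), against 6525 bp (1700 and 21588). Yet 49.3% of the window's length lay in region-free stretches longer than 30 kb, including its first 80.7 kb and its last 67.4 kb. The rest of the chromosome also had such stretches, with wild-type gaps of up to 1668250 bp, and their share of its length was not computed. The 8 such stretches inside the window parted 9 blocks, numbered here in the direction of rising coordinates. The longest 3 ran from 37182176 to 37249350 (67.2 kb), from 37735751 to 37797875 (62.1 kb) and from 37250501 to 37303050 (52.6 kb), and neither looser list had a region in them. At the edges the empty stretches went on beyond the window, to 129 kb before the first wild-type region and 119.3 kb before the first K3R3 region, and to 112 kb after the last region of either library. Of the 21 bins of 50 kb in the window, the fullest in both libraries was the one from 37850001 to 37900000, with 13 wild-type and 15 K3R3 regions. The next 2 by regions of both libraries together were 37100001 to 37150000, with 12 and 12, and 37900001 to 37950000, with 11 and 12.

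**Figure D3:**
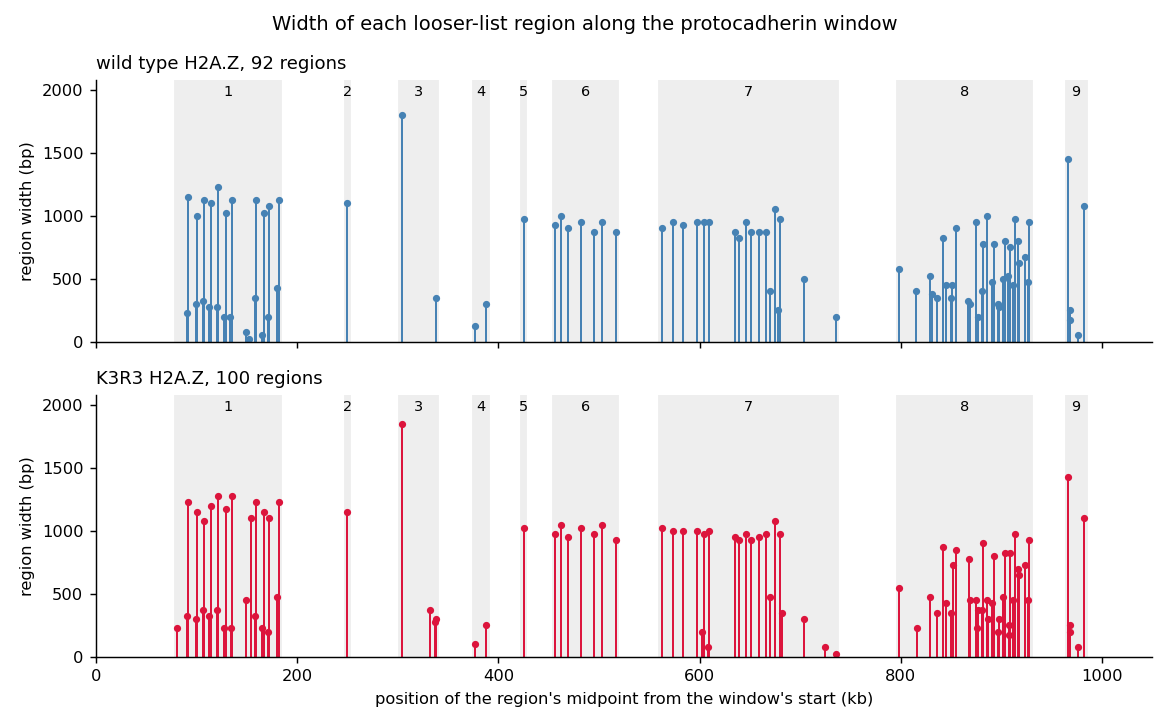
Width of every looser-list region against its position from the start of the window, for the wild type (upper panel) and K3R3 (lower panel), with the 9 blocks shaded and numbered. Narrow and wide regions alternate in block 1, regions of 825 to 1075 bp prevail in blocks 5 to 7, and widths in block 8 are mixed and at most 1000 bp.

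Block 1, from 37080701 to 37182175, was a series of pairs, each of a narrow region followed by a wide one. It held 24 wild-type and 25 K3R3 regions in 101 kb. When regions with gaps of at most 1500 bp were linked into chains, both libraries had 11 pairs here, the same 11 places in both, and the narrower region came first in all of them. In the wild type the first region measured 50 to 425 bp (median 275), the second 1000 to 1225 bp (median 1125), and the gap between them 725 to 1050 bp (median 875). In K3R3 the first measured 200 to 475 bp (median 325), the second 1075 to 1275 bp (median 1200), and the gap 600 to 975 bp (median 825). The fifth pair shows the form. Its wild-type regions ran from 37120101 to 37120375 (275 bp) and from 37121176 to 37122400 (1225 bp), and its K3R3 regions from 37120101 to 37120475 (375 bp) and from 37121151 to 37122425 (1275 bp). Set beside the gene table, the 11 pairs of this block compare with 12 genes from Pcdha1 to Pcdha12, the first genes of the locus in the same direction. The builds differ, so positions were not compared. The limits of chains and blocks were chosen after the regions had been seen, and the alpha array has 14 genes with Pcdhac1 and Pcdhac2. Whether pairs correspond to genes was not tested.

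The pairs of block 1 were wider in K3R3. Of the 11 pairs, the second region was wider in K3R3 in 10 and narrower in 1, with a median difference of 100 bp, or 4 steps of the 25 bp in which all coordinates are given. The first region was wider in K3R3 in 8 pairs and narrower in 1, with a median difference of 50 bp. On the rest of chromosome 18 K3R3 was wider in 42.2% of shared places of 800 to 1299 bp, and in 59.7% of those of 200 to 399 bp. The first regions were therefore less set apart from the rest of the chromosome than the second ones. The gap between first and second region was shorter in K3R3 in 9 of the 11. This gap is bounded by edges of the same regions, so it is not a difference separate from their widths. These differences are small beside the 200 to 400 bp fragments selected for the libraries, and each compares 1 library with 1 library.

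The series of pairs was broken at one place, where the libraries differed. Between the pairs that start at 37133651 and 37157601 lay a K3R3 region of 1100 bp, from 37153351 to 37154450. It was the sole region of at least 400 bp in the window that was library-specific, meaning present in the stricter list of a library (here with 1075 bp) and without overlap in the looser list of the other. Neither wild-type list had a region over it. The nearest looser wild-type region, 1075 bp away, was 25 bp wide (37152251 to 37152275). Ahead of it, a region common to both libraries was 450 bp wide in K3R3 (37148651 to 37149100) and 75 bp in the wild type (37148951 to 37149025). With this region, block 1 had 12 K3R3 regions of 800 to 1299 bp, against 11 in the wild type.

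**Figure D4:**
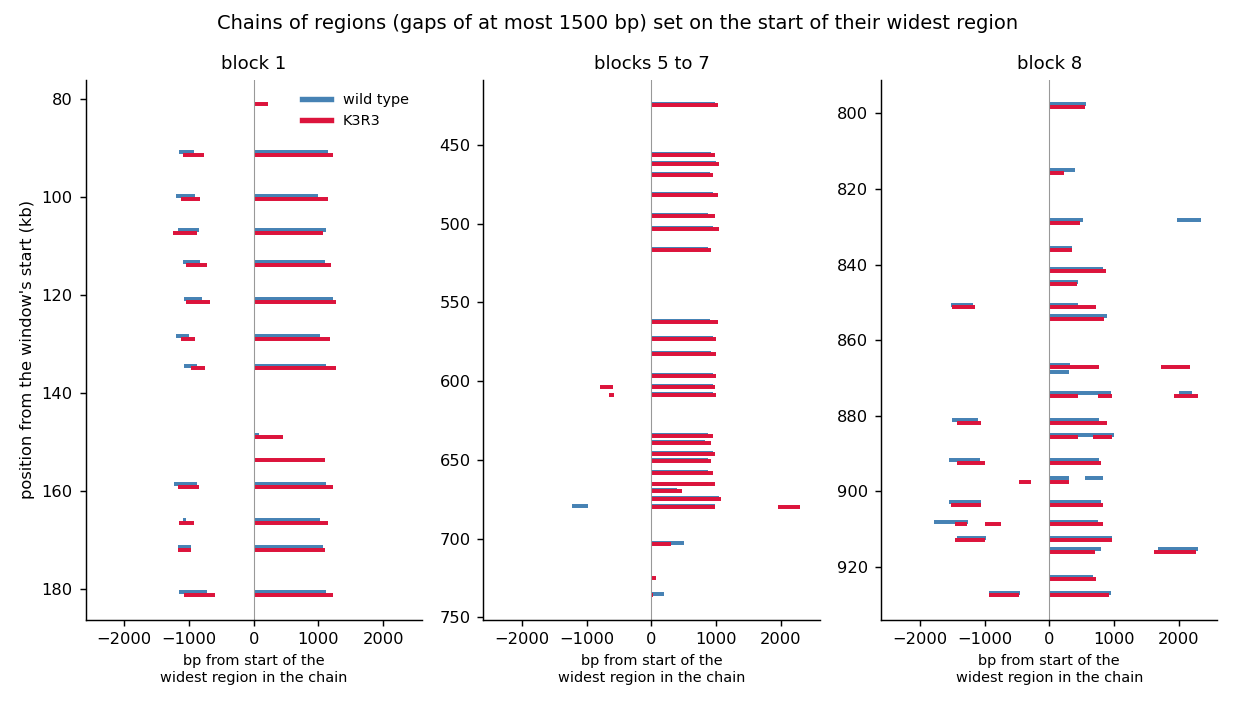
Chains of regions with gaps of at most 1500 bp, set on the start of the widest region of each chain (0 bp), against their position from the start of the window, in the wild type (blue) and K3R3 (red). In block 1 the 11 pairs have a narrow region 600 to 1050 bp ahead of the wide one, blocks 5 to 7 show mostly lone regions of like width, and block 8 has companions on either side.

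Blocks 2 to 4 were sparse. Block 2 was a lone region in both libraries. The wild-type one had 1100 bp (37249376 to 37250475) and the K3R3 one 1150 bp (37249351 to 37250500). Block 3 opened with the widest region of the window, which began at 37303051 in both libraries and ended at 37304850 in the wild type and at 37304900 in K3R3. Block 3 ended with a region near its far edge that both libraries had, wild type 350 bp and K3R3 300 bp wide, and ahead of it K3R3 alone had regions of 375 and 275 bp. Block 4 held narrow regions of at most 300 bp, of which 1 per library was shared. The others touched without overlap, since the K3R3 one ran from 37376826 to 37376925 and the wild-type one from 37376926 to 37377050, and both count as unmatched below.

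Blocks 5 to 7, from 37424451 to 37735750, consisted mainly of lone regions of nearly constant width. They had 22 wild-type and 22 K3R3 regions of 800 to 1299 bp, which overlapped one to one. The wild-type ones were 926 ± 52.0 bp wide (SD over 22 regions, range 825 to 1050), and the K3R3 ones 988 ± 42.1 bp (range 925 to 1075). Their midpoints lay a median of 7.89 kb apart in the wild type and 7.86 kb in K3R3, between 4.31 and 45.9 kb. The other regions of these blocks, 4 in the wild type and 7 in K3R3, were 25 to 500 bp wide. The gene table lists 22 Pcdhb genes as the middle array. The equal number is set down as a count, since blocks 5 to 7 were joined after their counts had been seen and their regions were not placed in genes. Without the lone region of block 5 the count was 21 in either library. The gamma array has 22 genes too, while block 8 had 8 regions of 800 to 1299 bp in either library.

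Nearly all regions of this series were wider in K3R3. K3R3 was wider at 21 of the 22 places and equal at 1, by a median of 50 bp (0 to 125 bp). Its region started further left in 19 and ended further right in 17, and the midpoints of the libraries were at most 37.5 bp apart. At these 22 places the log2 of wild-type over K3R3 width averaged -0.09. On the rest of the chromosome K3R3 was wider in 54.5% of all shared places and in 42.2% of those of 800 to 1299 bp. Those 270 places were classed by the mean of both libraries and could hold several regions of a library, unlike the 22 here. Their log2 ratio averaged 0.0049, and -0.018 at the 251 of them with 1 region of each library. Shared places of these blocks outside that class were mixed. The one at 37669576 was wider in K3R3 (475 against 400 bp). Those at 37703276 (500 against 300 bp) and 37735551 (200 against 25 bp) were wider in the wild type. With them, the mean log2 ratio of block 7 was 0.13. Each difference compares 1 library with 1 library.

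Block 8, from 37797876 to 37928125, was the block with most regions, 32 in the wild type and 34 in K3R3 in 130 kb. It had 11 wild-type pairs and 10 K3R3 pairs, 8 of them common, and 2 K3R3 chains of 3. The narrower region came first in 7 of 11 wild-type and 7 of 10 K3R3 pairs. In the wild type the first region had a median of 475 bp (300 to 950) and the second of 750 bp (200 to 975), with a median gap of 1050 bp. In K3R3 the medians were 450 bp (200 to 775), 763 bp (300 to 975) and 975 bp. Of these regions, 8 in either library were 800 to 1299 bp wide. At its 31 shared places K3R3 was wider in 12, the wild type in 15 and 4 were equal, with a mean log2 ratio of 0.022 (SD 0.50 over places) and a median of 0. Both places of the window where K3R3 had more pieces than the wild type were in this block. There the wild-type regions of 950 bp (37874351 to 37875300) and 1000 bp (37885351 to 37886350) each faced a pair of K3R3 regions, and the stricter wild-type list split both of them as well. The difference between this block and the others was not tested.

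Block 9 held 5 regions of either library, all shared. Its first was the second widest of the window, which began at 37965626. It ended at 37967075 in the wild type (1450 bp) and at 37967050 in K3R3 (1425 bp). Wild-type regions of 175, 250 and 50 bp and K3R3 regions of 200, 250 and 75 bp followed. A region that ended at 37982625 in both libraries, of 1075 bp (wild type) and 1100 bp (K3R3), was the last of the window.

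The order within pairs was compared with the rest of the chromosome. In the whole window the narrower region came first in 19 of 23 wild-type pairs (82.6%, 62.9 to 93.0) and in 21 of 25 K3R3 pairs (84%, 65.3 to 93.6). On the rest of chromosome 18 it came first in 131 of 280 wild-type pairs (46.8%, 41.0 to 52.6) and in 184 of 399 K3R3 pairs (46.1%, 41.3 to 51.0). Pairs held 50% of the window's regions in both libraries, against 21.3% and 23.7% on the rest of the chromosome. Within pairs the median wild-type gap was 975 bp in the window and 575 bp elsewhere, and the median K3R3 gap 875 and 600 bp. The 2 libraries share most of these pairs, so they are not separate evidence for the order. The order was chosen for comparison after the regions had been seen. In either library 11 of the pairs lie in block 1, where the narrower region came first in all of them. Most other pairs lie in block 8, with the narrower region first in 7 of 11 in the wild type and 7 of 10 in K3R3. The intervals therefore do not test the order.

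Most regions of the window were common to both forms of H2A.Z. In the wild type 88 of 92 regions (95.7%, 89.3 to 98.3) overlapped a K3R3 region, against 85.5% (84.1 to 86.8) on the rest of chromosome 18. In K3R3 90 of 100 regions (90%, 82.6 to 94.5) overlapped a wild-type region, against 67.6% (66.0 to 69.2). The 4 unmatched wild-type regions stand against a background of 18.4% of regions without a partner over all chromosomes and 14.5% on the rest of chromosome 18, and the 10 unmatched K3R3 regions against 28.1% and 32.4%. Wide regions were also shared more often than narrow ones on the rest of the chromosome. At the sharing found in each width class on the rest of the chromosome, 91.5% of the window's wild-type and 80.8% of its K3R3 regions would be shared. All 43 wild-type regions of 800 to 1299 bp and 43 of the 44 K3R3 regions of that class (97.7%) had a partner. These shares were near those of the same class elsewhere. On the rest of chromosome 18 they were 95.7% in the wild type and 92.2% in K3R3, and over all chromosomes 92.9% and 93.2%. Of the 10 unmatched K3R3 regions, all but the region of 1100 bp in block 1 were at most 375 bp wide. The length covered by both over the length covered by either, the Jaccard index, was 0.834 in the window and 0.645 on the rest of the chromosome.

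Library-specific regions were few, and all but the K3R3 region of block 1 described above were under 400 bp wide. They numbered 4 of 91 stricter wild-type regions (4.40%, 1.72 to 10.8), against 17.8% over all chromosomes and 14.4% on the rest of chromosome 18. In K3R3 they numbered 11 of 98 (11.2%, 6.38 to 19.0), against 25.7% and 29%. The wild-type ones were 225 to 350 bp wide, and 3 of the 4 were absent from both K3R3 lists. Of these 4, 2 were also missing from the looser list of the wild type itself. Of the K3R3 ones, all 11 were absent from both wild-type lists, with a median width of 200 bp (25 to 1075). Of these 11, 3 were missing from the looser K3R3 list.

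K3R3 had only slightly more regions than the wild type in the window. The ratio of wild-type to K3R3 counts was 0.92 (exact binomial interval 0.686 to 1.23), against 0.782 (0.743 to 0.823) on the rest of the chromosome. The interval for the window includes the value of the rest. Joining regions within 1000 bp of each other turned the ratio in the window to 1.04.

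At shared places K3R3 was more often the wider one, mainly at wide places. The 88 shared places of the window, each a cluster of overlapping regions of both libraries, were wider in K3R3 in 58 (65.9%, 55.5 to 75.0), wider in the wild type in 22 and equal in 8. Over all chromosomes K3R3 was wider in 49.5% of shared places, and on the rest of chromosome 18 in 54.5%. Among places of 800 to 1299 bp, by the mean of both libraries, K3R3 was wider in 36 of 43 in the window (83.7%, 70.0 to 91.9) and in 114 of 270 on the rest of the chromosome (42.2%, 36.5 to 48.2). Places of 200 to 799 bp had no such excess in the window as a whole, though the narrow first regions of block 1 were wider in K3R3 in 8 of 11 pairs. Under 200 bp K3R3 was wider in 3 of 4 places (75%, against 62.0% on the rest of the chromosome). At 200 to 399 bp K3R3 was wider in 10 of 22 (45.5%, against 59.7% on the rest of the chromosome). At 400 to 799 bp K3R3 was wider in 8 of 17 and the wild type in 8 (47.1%, against 50%). The mean log2 ratio over all 88 was -0.07 with an SD of 0.58 over places. Its 95% interval, -0.19 to 0.05, reflects the spread over places alone. Places are not replicates, so it does not test the difference between the libraries. The median was -0.07. On the rest of the chromosome the mean was -0.15 and the median -0.06. In block 1 K3R3 was wider at 19 of 23 shared places. Midpoints were a median of 12.5 bp apart in the window where each library had 1 region, and 83 of 86 lay within 100 bp.

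**Figure D5:**
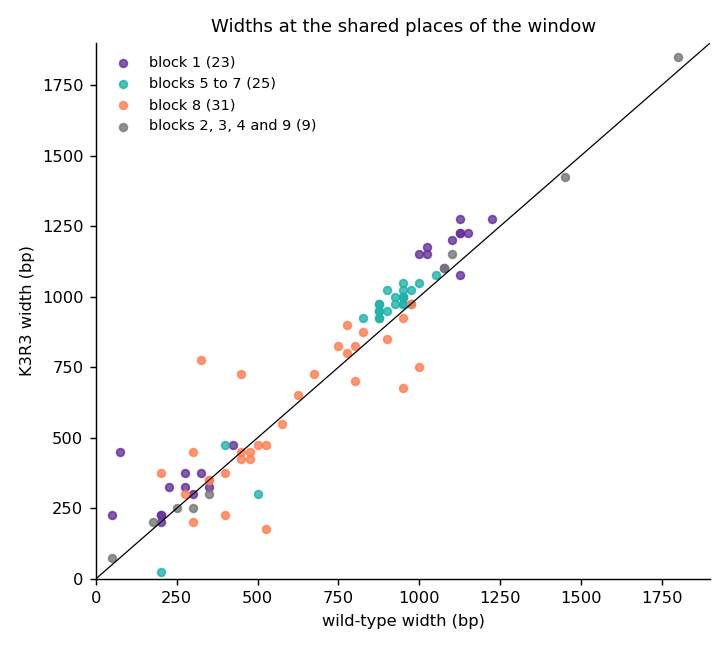
Width in K3R3 (vertical axis) against width in the wild type (horizontal axis) at the 88 shared places of the window, in bp, coloured by block, with the line of equal width. The wide places of block 1 and of blocks 5 to 7 lie mostly above the line, with K3R3 wider, and those of block 8 lie on either side.

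The 10 widest regions of each library lay mostly in block 1, with 7 of the wild type and 8 of K3R3. In K3R3 the tenth place was tied at 1150 bp between 37100101, which was taken as the first by position, 37166151 in the same block and 37249351 in block 2, and with the last of these block 1 would hold 7. The wild-type ones were covered by K3R3 to between 93.3% and 100%, with 8 covered whole, and the K3R3 ones by the wild type to between 87.0% (the region taken at the tie) and 100%, with 1 covered whole. Each faced a lone region of the other library, and all were in the stricter list of their own library too.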

How the data were processed

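The authors deposited lists of regions enriched in tagged H2A.Z, with 1 library per group and 2 lists per library. Per the labels' protocols, sonication took 30 cycles, 30 s on with 30 s rests, library fragments had 200 to 400 bp, and PCR ran for 19 cycles. Bowtie 0.12.3, bedtools and the build mm9 were used, per the submitters' processing notes. Which program called the regions, with what filters and control, is not given in the sources used here, and the tag LSWCE in the track lines is not explained. The deposited lists give a start and an end in steps of 25 bp, with no score or height, and neighbours in them are at least 225 bp apart. A form of occupancy narrower than these steps, or a dip shorter than that gap, cannot be seen, and read depth is unknown.

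The members and lists were chosen with earlier results of these data known. Main results come from the looser lists. A region was in the window, or shared, if it overlapped by at least 1 bp. Shares have 95% Wilson intervals and ratios of counts exact binomial ones, which treat regions as independent. The interval of the mean log2 width ratio was taken from the SD over shared places and treats these as independent. The rule for named regions took the 10 widest of each library, library-specific regions of at least 400 bp, the 3 longest region-free stretches and the 3 fullest bins of 50 kb. Other regions were named to show the pattern of a block and were chosen after their values were seen. The width class of 800 to 1299 bp, the chains, the order within pairs, the blocks and their joining were also chosen after the regions had been seen. Positions are 1-based. Python 3.11.15 with numpy 2.4.6, scipy 1.17.1 and matplotlib 3.10.9 was used. Overlaps on chromosome 18 equalled those of bedtools 2.31.1, and overlaps, pairs and width differences planted in simulated data, drawn from all 2727 regions of the chromosome in the looser wild-type list, were all recovered.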

Additional observations from a re-analysis of the deposited data

How the results depend on the processing

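No paired analysis was possible because there was only 1 library in each group, and no library could be left out. Of 111 alternative values, 93 stayed within the interval (or within 1.5 times for counts) of the reported ones and kept their direction, 15 moved and 3 reversed. The reversed ones were the ratio of wild-type to K3R3 counts with regions within 1000 bp joined (1.04) and the density against the neighbouring stretches (0.872 in the wild type, 0.816 in K3R3). The other shifts follow, and their cause was not tested. Density against the rest of the chromosome was 3.60 in the wild type and 3.11 in K3R3 with regions of at least 200 bp only, and 4.04 and 3.74 by covered length. A reciprocal overlap of 50% left 88.0% of wild-type and 81% of K3R3 regions shared, and a distance of up to 1000 bp gave 96% in K3R3. The 111 values also count the share expected at the rest of the chromosome's rates in each width class. That is a background value and not another measure of sharing in the window. It was 91.5% in the wild type, counted among the 93, and 80.8% in K3R3, counted among the 15. Joining within 1000 bp gave a Jaccard index of 0.794 and, in K3R3, a median width of 988 bp and a median gap of 5375 bp. Equal numbers of regions, widest first, gave a ratio of counts of 0.892 on the rest of the chromosome. Trimming the window by 50 or 100 kb at both ends and using the stricter lists moved none of these results. The first 80.7 kb and the last 67.4 kb of the window held no region. The trim by 50 kb therefore removed none and could change the density alone. For the same reason, taking only regions wholly inside the window, or with their midpoint in it, left the counts at 92 and 100. The 93 values that stayed include these settings, which say nothing on robustness. Among choices made after seeing the data, limits 100 bp narrower at both ends of the class of 800 to 1299 bp left 34.8% (wild type) and 33% (K3R3) of regions in it, and stretches over 40 kb parted 5 blocks. The order within pairs kept its direction with chains linked at 1000 or 2000 bp and in the stricter lists. Without read depth, heights or replicates, a narrow region missing from 1 library cannot be told from one that was under its threshold.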

Other observations

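In both libraries a somewhat larger share of looser regions overlapped their own stricter list in the window than elsewhere on the chromosome. Regions under 200 bp were rarer in the window, and these shares were not matched for width. In the wild type 87 of 92 looser regions (94.6%) overlapped a stricter region, against 89.3% on the rest of chromosome 18, and in K3R3 94 of 100 (94%) did, against 86.9%. Where 1 looser region faced 1 stricter region, the looser one was a median of 25 bp wider in both libraries, in the window as on the rest of the chromosome. The stricter lists added 2 wild-type and 4 K3R3 regions that overlapped no region of their own looser list. These are 2 of 91 and 4 of 98, against 139 of 2537 and 222 of 3210 on the rest of the chromosome. Those of the wild type ran from 37821626 to 37821875 and from 37834051 to 37834400, both in block 8. No difference between the window and the rest was tested here.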
